A study of Mus musculus with 12 samples.

Results

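The transcription factors described here are 8 genes that set intestinal identity and drive the maturation of the gut lining: Cdx1, Cdx2, Hnf4a, Hnf4g, Klf4, Klf5, Gata6 and Elf3. They were taken by gene symbol from the 24391 symbols of the deposited tables, and all 8 were found and passed the filter on low values, which kept 12052 genes. Messenger RNA was sequenced from colon epithelial cells of C57BL/6 mice aged 18 weeks, in 12 libraries. The 3 groups of 4 libraries were controls, mice given AOM and DSS (AOM/DSS), and mice given AOM and DSS plus curcumin (curcumin below). AOM, azoxymethane, is a carcinogen; DSS, dextran sulfate sodium, inflames the colon; curcumin is a polyphenol of turmeric. Dose, timing and sex are not given in the labels. The cells were scraped from what was left of the colon once its proximal segment and the tumours of its right portion had been cut away, so the preparations are mucosal scrapings rather than sorted cells or dissected tumours. The title of the series gives its question as the transcriptome changes in colitis-accelerated colon cancer and what curcumin does to them. No label states whether libraries come from separate animals, so p-values measure the spread between samples.

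These factors form layers. CDX proteins are homeobox factors that hold intestinal against gastric identity, with Cdx2 as the main selector gene and Cdx1 as its close relative. HNF4 proteins are nuclear receptors that switch on brush border, transport and lipid genes of absorptive cells, and in mouse small intestine Hnf4a and Hnf4g can stand in for each other. Klf4 is linked to growth arrest and goblet cell maturation at the top of the crypt and Klf5 to proliferation in its lower part. Gata6 is a GATA factor of the gut lining, and its relative Gata4 belongs to the proximal small intestine. Elf3 is an ETS factor found in epithelia.

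Recovered read totals ran from 5567988 to 15968416 per library and every factor was detected in every library. The fewest reads behind a value of each of the 3 factors with the lowest counts were 220 for Hnf4g, a counting error of 6.74%, 283 for Gata6 (5.94%) and 462 for Cdx2 (4.65%). Libraries differed in base composition: in 5 of 12 (control 0, AOM/DSS 0 and 1, curcumin 0 and 1), called GC-rich here, GC-rich genes stood higher relative to the mean of all libraries, and in the other 7, called AT-rich, lower. Values are therefore also given within these classes. The 13 listed pan-epithelial genes summed to 6270 to 9033 FPKM in controls, 5961 to 9175 in AOM/DSS and 5971 to 10890 with curcumin; 12 of them were tested and none was called in any comparison (limma, adjusted p below 0.05). At an unadjusted p below 0.05, 0, 0 and 2 of these 12 passed, and voom called 0. AOM/DSS library 3 stood apart in genes that mark position along the gut. It was at 0.98 FPKM for Hoxd10 (4.19 to 12.4 in the other libraries), 12.2 for Hoxd13 (30.8 to 58.0), 9.89 for Hoxa13 (17.7 to 30.6) and 58.7 for Cyp4b1 (0.12 to 9.94). Without this library 0 of 8 factors were called in each comparison, and the log2 fold changes for AOM/DSS against control were 0.27 for Cdx1, 0.13 for Klf4 and -0.39 for Hnf4g. In such bulk samples fewer cells of a type and less RNA per cell cannot be told apart.

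The upstream sequences of Cdx2 and Hnf4a are shown because the levels of these genes varied together from library to library within groups, as given further on. Each is the 250 bases before a RefSeq transcription start on GRCm38.p6, written in the direction of the gene. Hnf4a has a pair of starts, so its gene-level value pools transcripts from both. Capitals mark any match, on either strand, to letters taken as the cores that the families are known to bind. For CDX proteins the letters were TTTAT. For the nuclear receptors Hnf4a and Hnf4g they were CAAAG. The letters for the zinc finger protein Gata6 and its relatives were AGATAA. ETS factors such as Elf3 were given the letters GGAAG. Finally, Klf4, Klf5 and the other Krüppel-like factors were given GGGCG.
Cdx2, chr5:147307250-147307499, minus strand: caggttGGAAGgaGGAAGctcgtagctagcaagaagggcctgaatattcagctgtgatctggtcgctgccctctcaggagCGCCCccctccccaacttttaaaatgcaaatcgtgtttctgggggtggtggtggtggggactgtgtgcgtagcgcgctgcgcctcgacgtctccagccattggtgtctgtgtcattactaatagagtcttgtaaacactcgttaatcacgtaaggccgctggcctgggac
Hnf4a upstream start, chr2:163506607-163506856, plus strand: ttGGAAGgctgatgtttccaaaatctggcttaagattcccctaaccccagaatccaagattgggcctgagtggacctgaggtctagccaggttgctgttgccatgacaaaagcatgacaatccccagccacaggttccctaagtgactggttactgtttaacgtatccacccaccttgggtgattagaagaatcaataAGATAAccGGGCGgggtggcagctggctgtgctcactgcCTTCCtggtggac
Hnf4a downstream start, chr2:163546905-163547154, plus strand: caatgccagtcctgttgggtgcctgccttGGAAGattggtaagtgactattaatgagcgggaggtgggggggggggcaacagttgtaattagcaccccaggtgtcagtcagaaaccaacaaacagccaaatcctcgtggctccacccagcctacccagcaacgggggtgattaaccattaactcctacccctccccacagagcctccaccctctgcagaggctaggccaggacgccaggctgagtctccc
The Cdx2 window held 2 matches to the ETS letters and 1 to the KLF letters. The upstream Hnf4a window held 1 match to the GATA letters, 2 to the ETS letters and 1 to the KLF letters, and the downstream one held 1 match to the ETS letters. None of these 3 windows held the CDX or the HNF4 letters. Of all 32851 windows of the same length, 37.3% held the CDX letters, 48.6% the HNF4 letters, 9.99% the GATA letters, 64.1% the ETS letters and 43.7% the KLF letters. These matches are descriptions of letters in a window, not binding sites.

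All 8 factors were well expressed, with means from 11.6 to 394.7 FPKM. FPKM corrects read counts for the length of a gene and the scale of a library, but not for base composition, so levels of different genes compare only roughly. The scale here equalled the median over genes of a library's reads relative to all libraries, not its read total. Over the 12 libraries the mean was 394.7 ± 82.7 FPKM (SD, n = 12) for Elf3, 262 ± 30.5 for Hnf4a, 243 ± 56.9 for Klf4, 218 ± 31.5 for Cdx1, 118 ± 31.7 for Klf5, 68.0 ± 26.5 for Cdx2, 16.7 ± 1.63 for Gata6 and 11.6 ± 3.46 for Hnf4g. Elf3 was above Hnf4a in 12 of 12 libraries. Hnf4a, Klf4 and Cdx1 overlapped: Hnf4a was above Klf4 in 7 of 12 libraries, and Klf4 above Cdx1 in 7 of 12. From Cdx1 downwards, each factor was above the next in 12 of 12 libraries.

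**Figure D1:**
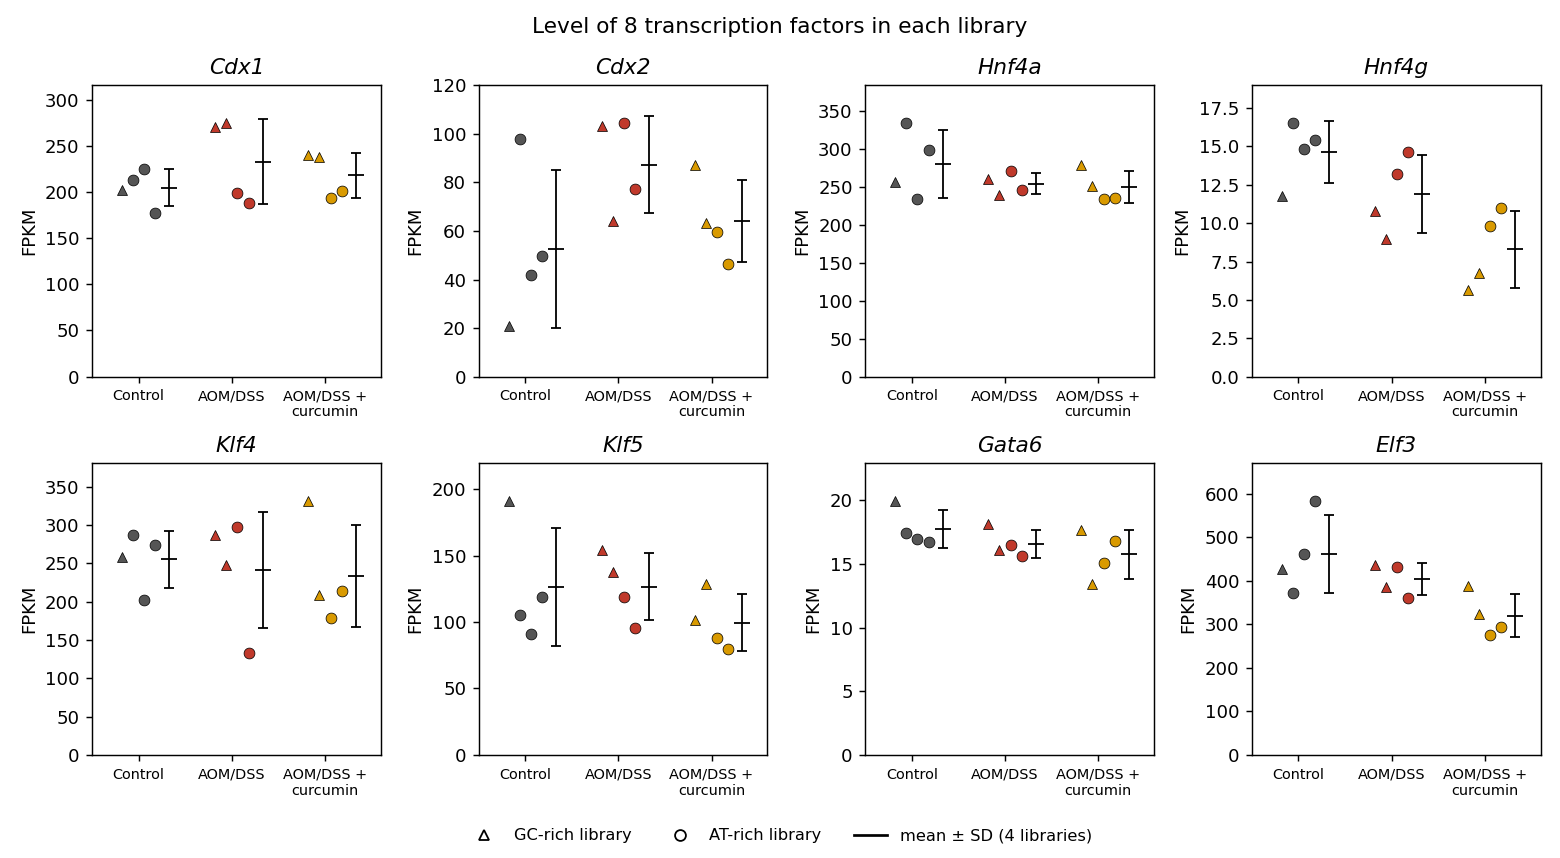
FPKM (linear axis from 0) of each of the 8 factors in the 12 libraries, by group; triangles are GC-rich and circles AT-rich libraries, and bars give mean ± SD of 4 libraries. Cdx2 spreads most in controls, from 20.9 to 97.8 FPKM, and Hnf4g is lower in the 4 curcumin libraries (5.62 to 10.97 FPKM) than in the 4 controls (11.8 to 16.5 FPKM).

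None of the 8 factors passed the test in any of the 3 comparisons. The test was limma on log2(FPKM + 1) with Benjamini-Hochberg adjustment over all 12052 genes and a threshold of 0.05. For AOM/DSS against control 0 of 8 were called, where 1.27% of all genes tested were (153 genes). For curcumin against AOM/DSS 0 of 8 were called beside 1.08% of all genes (130 genes), and for curcumin against control 0 of 8 beside 0.141% (17 genes). At an unadjusted p below 0.05 the counts were 1, 2 and 2 of 8, beside 1622, 1742 and 1468 of all 12052 genes, and limma voom on recovered reads called 0 of 8 in each. A count of 0 of 8 is near a background this low. The median log2 fold change of the 8 was -0.11, -0.21 and -0.16 in the 3 comparisons, where the median of all genes was 0.02, -0.01 and 0.01. All 8 point estimates were below 0 for curcumin against AOM/DSS; those of Klf4, Hnf4a, Gata6 and Cdx1 were within 0.08 of 0, and the sign of Klf4, Hnf4a and Cdx1 turned in some alternative fits.

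**Figure D2:**
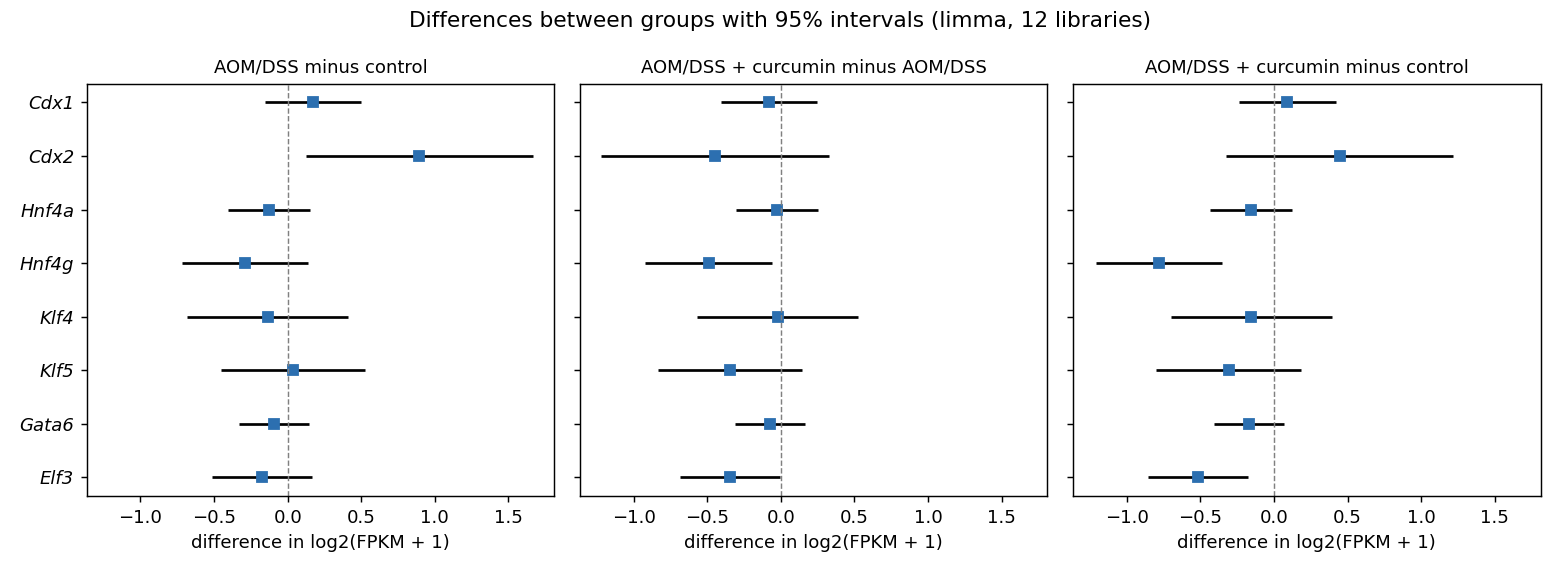
Difference in log2(FPKM + 1) for each factor in the 3 comparisons (squares), with 95% intervals from the limma fit over 12 libraries (lines). The intervals that leave out 0 are those of Cdx2 for AOM/DSS minus control (0.12 to 1.67), Hnf4g and Elf3 for curcumin minus AOM/DSS, and Hnf4g and Elf3 for curcumin minus control; none passed the adjusted threshold.

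Of the CDX pair, Cdx2 had the largest difference of any factor between AOM/DSS and control, and the widest spread. Its FPKM in control libraries 0 to 3 were 20.9, 97.8, 42.0 and 49.6. In AOM/DSS libraries 0 to 3 they were 103, 64.3, 104.5 and 77.3, and with curcumin 87.3, 63.1, 59.6 and 46.4. All 4 AOM/DSS libraries were above the control median of 45.8 FPKM, but control library 1 was as high as the AOM/DSS libraries, so the groups overlapped. The log2 fold change for AOM/DSS against control was 0.89 (SE 0.36, 95% interval 0.12 to 1.67, limma unadjusted p = 0.0265, adjusted p = 0.287). It rested on single control libraries: without control 0 it was 0.53, and without control 1 it was 1.26 (limma adjusted p = 0.411 and 0.0696). Within the AT-rich libraries it was 0.60, and within the GC-rich ones, which hold 1 control, 1.91. Curcumin differed from AOM/DSS by -0.45 (interval -1.22 to 0.33) and from control by 0.45 (interval -0.33 to 1.22); without control 0 the latter was 0.08.

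Cdx1 was steadier. Its FPKM were 202, 213, 224.5 and 178 in control libraries 0 to 3, 269.9, 275, 199 and 188 in AOM/DSS and 240.0, 238, 193 and 201 with curcumin. In AOM/DSS and curcumin the high libraries were the GC-rich ones, with class means of 272 against 193 FPKM in AOM/DSS and 239 against 197 with curcumin, while the single GC-rich control, at 202, was no higher than the AT-rich controls at 205. The Cdx1 transcript had the highest GC content of the 8, at 62.1%. Its log2 fold change for AOM/DSS against control was 0.17 (interval -0.16 to 0.50, limma adjusted p = 0.677), and it was -0.08 in the AT-rich libraries alone. The Cdx1 to Cdx2 ratio ranged from 2.18 to 9.67 in controls, 1.90 to 4.27 in AOM/DSS and 2.75 to 4.33 with curcumin, and the highest ratio was that of control 0, where Cdx2 was lowest.

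Of the nuclear receptors, Hnf4g was the one factor whose curcumin and control libraries did not overlap. Its FPKM in control libraries 0 to 3 were 11.8, 16.5, 14.9 and 15.4. In AOM/DSS they were 10.8, 8.96, 13.2 and 14.6, and with curcumin 5.62, 6.78, 9.81 and 10.97. The 4 curcumin libraries lay below the 4 controls and below the AOM/DSS median of 11.98 FPKM, and overlapped with the AOM/DSS libraries. The log2 fold change for curcumin against control was -0.78 (SE 0.20, 95% interval -1.21 to -0.35, limma unadjusted p = 0.00175, adjusted p = 0.139), a fold of 0.58 (0.43 to 0.78). For curcumin against AOM/DSS it was -0.49 (interval -0.92 to -0.06, limma adjusted p = 0.276), and for AOM/DSS against control -0.29 (interval -0.72 to 0.14, limma adjusted p = 0.575). Non-overlapping groups of 4 were found for 1 of 8 factors in curcumin against control, beside 8.26% of all genes, and for 0 of 8 in AOM/DSS against control (6.02% of all genes) and in curcumin against AOM/DSS (9.22%).

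The Hnf4g transcript had the lowest GC content of the 8, at 42.4%, and its level moved with the GC class of the library, with means of 8.78 FPKM in the GC-rich and 13.6 FPKM in the AT-rich libraries. Control had 1 GC-rich library and the other groups 2 each. Within the GC-rich class the means were 11.8 FPKM for control, 9.87 for AOM/DSS and 6.20 for curcumin. Within the AT-rich class they were 15.6, 13.9 and 10.4 FPKM, in the same order. Within classes the log2 fold change for curcumin against control was -0.83 (GC-rich) and -0.54 (AT-rich). With the GC class as a covariate, limma called Hnf4g lower with curcumin than in AOM/DSS (-0.49, adjusted p = 0.0317) and than in control (-0.65, adjusted p = 0.0318). It was then 1 of 8 factors called in each, beside 2.26% and 0.332% of all genes, and 0 of 8 were called for AOM/DSS against control, beside 1.97%. With each library's GC trend removed instead, the adjusted p was 0.0922 and 0.0548, so the call depended on how base composition was treated.

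**Figure D3:**
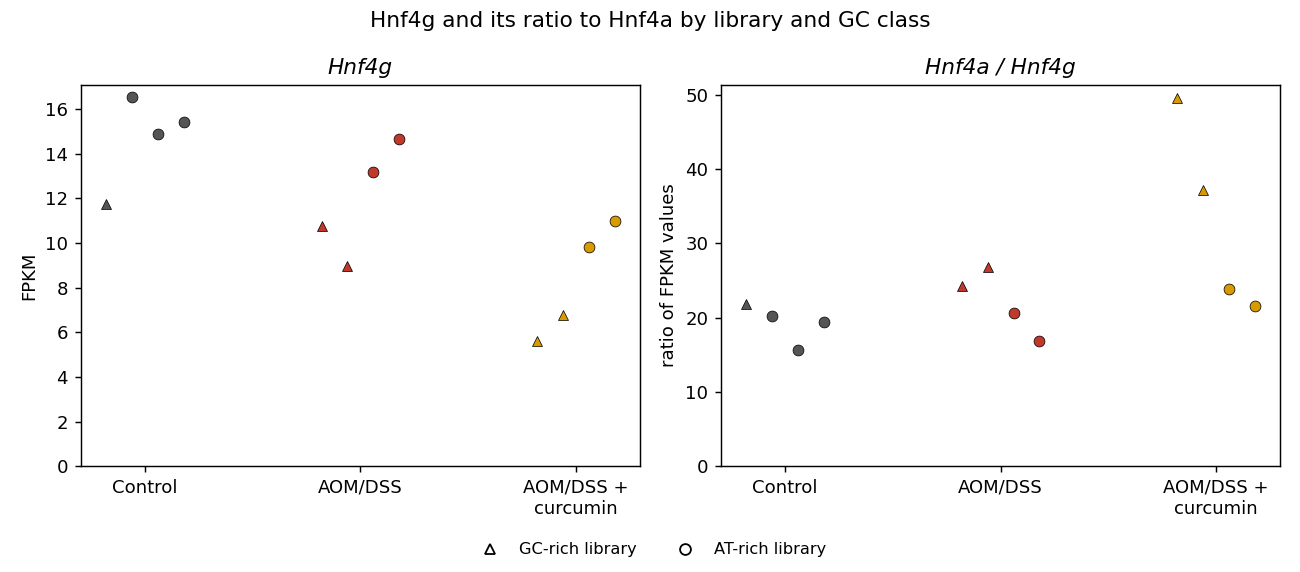
Left, FPKM of Hnf4g, and right, the ratio of Hnf4a to Hnf4g FPKM, in each of the 12 libraries by group, on linear axes from 0; triangles are GC-rich and circles AT-rich libraries. In each class curcumin libraries have the lowest Hnf4g, and the highest ratios, 49.6 and 37.2, are the GC-rich curcumin libraries.

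Hnf4a itself stayed within a narrow band. Its FPKM were 257, 334.8, 234 and 299 in control libraries 0 to 3, 261, 240.3, 272 and 246 in AOM/DSS, and 279, 252, 234 and 235 with curcumin. The groups overlapped, and the highest value was that of control 1, also the highest control for Cdx2. Log2 fold changes were -0.13 (interval -0.41 to 0.15) for AOM/DSS against control, -0.03 (interval -0.31 to 0.25) for curcumin against AOM/DSS and -0.16 (interval -0.44 to 0.12) for curcumin against control, with limma adjusted p of 0.716, 0.951 and 0.651. Its spread within groups, an SD of 0.16 on the log2 scale, was at the 15.9th percentile of all genes tested. The Hnf4a to Hnf4g ratio was 15.7 to 21.8 in controls, 16.8 to 26.8 in AOM/DSS and 21.5 to 49.6 with curcumin, so the control and curcumin ranges overlapped between 21.5 and 21.8.

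Neither Krüppel-like factor separated the groups. Klf4 was at 258, 288, 202 and 274 FPKM in control libraries 0 to 3, at 287.5, 247, 297 and 133 in AOM/DSS, and at 331, 209, 179 and 215 with curcumin. The lowest value was AOM/DSS library 3, the one that stood apart in position markers, and the highest curcumin library 0. Its log2 fold change for AOM/DSS against control was -0.13 (interval -0.68 to 0.41, limma adjusted p = 0.858), and 0.13 without AOM/DSS library 3. Klf5 was at 191, 105.0, 91.1 and 119 FPKM in controls, 154, 137, 119 and 95.7 in AOM/DSS, and 102, 128, 88.3 and 79.8 with curcumin. The GC-rich libraries were higher, with a mean of 142 FPKM against 99.7 in the AT-rich ones, and control 0 was highest. The Klf5 transcript had a GC content of 46.9%, the lowest among the factors after Hnf4g at 42.4%. Its difference between the classes thus ran opposite to that of Hnf4g and did not follow GC content. The cause was not tested. Klf5 differed by 0.04 for AOM/DSS against control (interval -0.45 to 0.53, limma adjusted p = 0.962) and by -0.34 for curcumin against AOM/DSS (interval -0.84 to 0.15, limma adjusted p = 0.531). For curcumin against control the difference was -0.31, and -0.09 without control 0. The Klf4 to Klf5 ratio was 1.35 to 2.74 in controls, 1.39 to 2.50 in AOM/DSS and 1.63 to 3.26 with curcumin.

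Gata6 was the least variable of the 8, with a within-group SD of 0.13 on the log2 scale, at the 6.7th percentile of all genes tested. It was at 19.9, 17.5, 17.0 and 16.7 FPKM in control libraries 0 to 3, 18.2, 16.1, 16.5 and 15.6 in AOM/DSS, and 17.7, 13.4, 15.1 and 16.8 with curcumin. The 3 groups overlapped, and the intervals of its log2 fold changes ran from -0.33 to 0.15, -0.31 to 0.16 and -0.41 to 0.07 in the order used above (limma adjusted p = 0.767, 0.822 and 0.57). In GENCODE M21, 1.4% of its exon bases are shared with 1010001N08Rik on the other strand, and strand use in counting is not stated. Gata4, a GATA factor of the proximal small intestine, was at 0.02 to 0.35 FPKM, below the filter and not tested.

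Elf3 was the highest of the factors and was lowest with curcumin. It was at 427, 371, 462 and 582 FPKM in control libraries 0 to 3, 437, 386, 432 and 360.3 in AOM/DSS, and 387, 322.5, 276 and 294 with curcumin. The 4 curcumin libraries were below the medians of both other groups, at 444 and 409 FPKM, but curcumin library 0 overlapped with the lowest control and AOM/DSS libraries. The log2 fold change was -0.52 for curcumin against control (SE 0.16, 95% interval -0.86 to -0.18, limma unadjusted p = 0.00582, adjusted p = 0.21) and -0.34 for curcumin against AOM/DSS (interval -0.68 to -0.0037, limma adjusted p = 0.341). AOM/DSS differed from control by -0.17 (interval -0.51 to 0.16, limma adjusted p = 0.68). The GC classes differed in opposite ways between groups: the GC-rich control was at 427 FPKM and the AT-rich controls had a mean of 472, while with curcumin the means were 354.6 (GC-rich) and 285.0 (AT-rich). For curcumin against control the log2 fold change was -0.27 within the GC-rich and -0.70 within the AT-rich libraries. An antisense gene, Gm26642, shares 7.3% of the Elf3 exon bases in GENCODE M21.

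Marker levels of other cell types that scrapings can hold are given here because the curcumin mean was the lowest of the 3 groups for 6 of the 8 factors, all but Cdx1 and Cdx2. Sums run over all listed genes found in the tables, tested or not. Red blood cell genes (7 of 7 tested, none called) summed to 85.6 to 473 FPKM in controls, 22.5 to 464 in AOM/DSS and 38.2 to 55.3 with curcumin, with a median log2 fold change of -1.81 for curcumin against control. Smooth muscle genes (4 of 7 tested, none called) summed to 27.4 to 33.4, 18.7 to 37.0 and 16.1 to 21.2 FPKM. Fibroblast genes (4 of 8 tested, none called) summed to 2.84 to 17.5, 4.91 to 28.1 and 2.06 to 7.37 FPKM, and endothelial genes (3 of 7, none called) to 7.41 to 16.9, 8.84 to 10.3 and 6.10 to 10.2 FPKM. Macrophage genes (8 of 12 tested) summed to 435 to 524, 320.2 to 438 and 347 to 540.0 FPKM, B and plasma cell genes (7 of 8) to 10.9 to 37.3, 16.4 to 109 and 3.66 to 24.5, T and NK cell genes (3 of 11) to 5.42 to 7.60, 3.98 to 18.4 and 3.60 to 6.42, and neutrophil genes (2 of 7) to 0.82 to 3.83, 1.44 to 13.1 and 1.38 to 1.70, with none called in any of these lists. No marker of these cell types found in the tables was at 0 in every library. For macrophages the median log2 fold change of the tested genes for AOM/DSS against control was 0.53, with 7 of 8 above 0, while the summed level was lower in AOM/DSS. Most of that sum was Ctss, with a mean of 371 FPKM over the 12 libraries. Ctss was the 1 tested gene below 0 (-0.60, limma adjusted p = 0.0953), so the sum mainly follows this gene. The 7 red blood cell symbols held at most 5 separate measurements, since Hbb-b1 and Hbb-bs had the same reads in every library, as did Hbb-b2 and Hbb-bt, and Hba-a1 and Hba-a2 nearly so, which the sums count again. At an unadjusted p below 0.05, all 7 of these symbols and 2 of 4 smooth muscle genes passed for curcumin against control. For curcumin against AOM/DSS 6 of 8 macrophage genes passed (median log2 fold change -0.98), as did 3 of the 7 red blood cell symbols and 2 of 7 B and plasma cell genes. So did 1 of 3 T and NK cell, 1 of 2 neutrophil, 1 of 4 smooth muscle and 1 of 3 endothelial genes. For AOM/DSS against control 4 of 8 macrophage, 1 of 2 neutrophil, 1 of 4 smooth muscle and 1 of 3 endothelial genes passed. Of all 12052 genes, 1468 passed unadjusted for curcumin against control, 1742 for curcumin against AOM/DSS and 1622 for AOM/DSS against control. Voom called 0 in each of these cell lists. Early response and heat shock genes, of which 16 of 17 were tested, summed to 342 to 448 FPKM in controls, 466 to 1201 in AOM/DSS and 223 to 540.2 with curcumin. For curcumin against AOM/DSS 16 of 16 had a log2 fold change below 0 (median -0.97) and 12 of 16 an unadjusted p below 0.05; for AOM/DSS against control 16 of 16 were above 0 (median 0.91) and 9 of 16 passed unadjusted. Of them Hsph1, a heat shock chaperone, fell with curcumin against AOM/DSS (-2.36, limma adjusted p = 0.0423), a call kept only without control 0, control 1 or AOM/DSS 2 among the 12 fits that left out 1 library (adjusted p up to 0.138). The part of these cells and of this response in the factors' values was not tested.

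**Figure D4:**
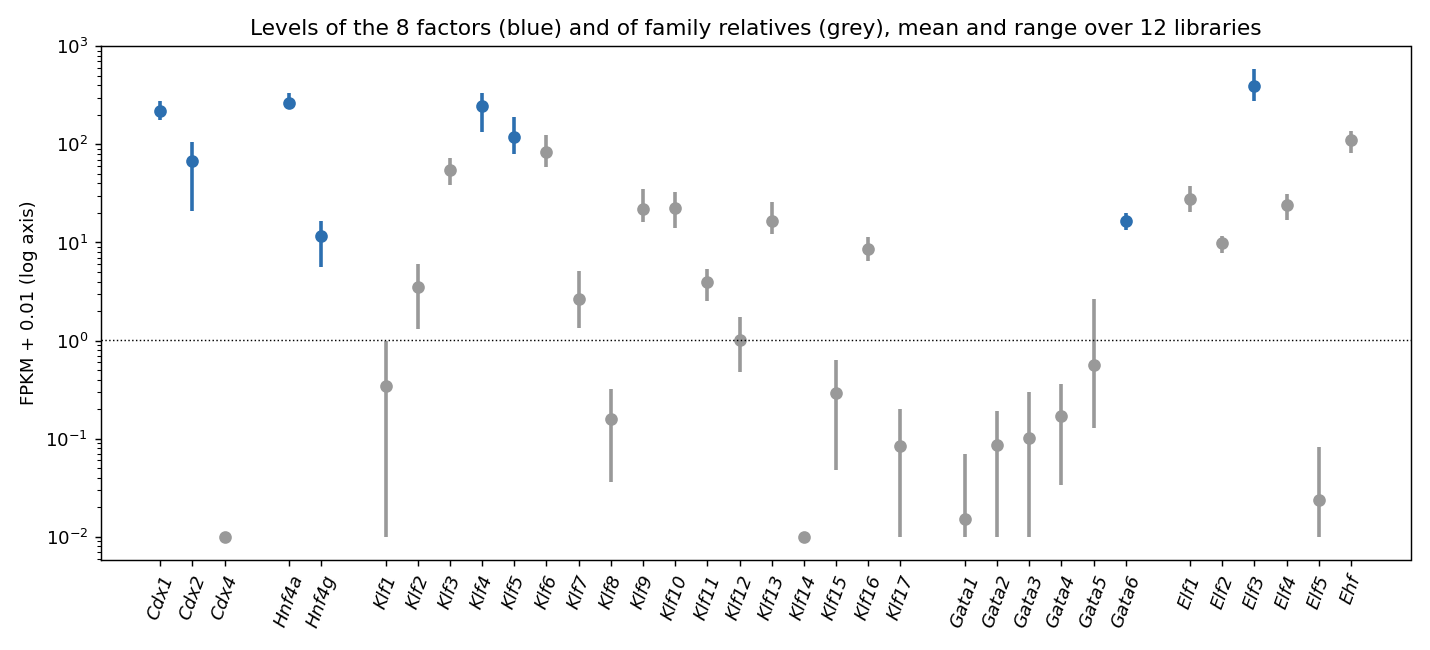
Mean (dot) and range over 12 libraries (line) of FPKM + 0.01, on a log axis, for the 8 factors in blue and relatives in grey, by family; the dotted line is the 1 FPKM minimum. Cdx4 and Klf14 are at 0 in every library, and Gata6 is the one GATA gene above the line throughout.

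In the CDX, Krüppel-like, GATA and ETS families the factors had higher mean levels than every relative listed. Of these 28 relatives, 16 passed the filter. Ehf, the ETS factor closest to Elf3 in epithelia, had a mean of 112 FPKM, Klf6 82.9 and Klf3 54.3. Cdx4 and Klf14 were at 0 in every library. No relative was called in any comparison by limma or voom. At an unadjusted p below 0.05, 2, 1 and 5 of 16 passed, beside 1622, 1742 and 1468 of all 12052 genes. The median log2 fold change of the 16 was -0.12, -0.14 and -0.29. The largest differences were those of Klf9 for AOM/DSS against control (-0.59, limma adjusted p = 0.0692) and Klf7 for curcumin against control (-0.65, limma adjusted p = 0.353).

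Among 41 tested of 44 other transcription factors of the intestinal lining, 3 fell in AOM/DSS and 0 rose, beside 1.27% of all genes called. Vdr, the vitamin D receptor, was at 209, 200.5, 189 and 221 FPKM in control libraries 0 to 3 and 109, 106, 136 and 109 in AOM/DSS, with no overlap. Its log2 fold change was -0.83 (SE 0.11, limma adjusted p = 0.00366), and the call held in 12 of 12 fits that left out 1 library. With curcumin Vdr was at 150, 159, 158.5 and 139 FPKM, between the other groups. Nr3c2, the mineralocorticoid receptor, went from 47.8 ± 10.8 to 27.1 ± 3.82 FPKM (SD, n = 4; log2 fold change -0.78, limma adjusted p = 0.0394). Tcf7l2, the main nuclear effector of Wnt signalling in the gut, went from 38.1 ± 6.40 to 23.4 ± 4.10 FPKM (-0.68, limma adjusted p = 0.0488). Both calls were fragile: that of Nr3c2 held only without control 2, AOM/DSS 1 or AOM/DSS 2 (adjusted p up to 0.14 over the 12 fits), and that of Tcf7l2 only without AOM/DSS 1 (up to 0.169). For curcumin against AOM/DSS 1 rose and 0 fell, beside 1.08% of all genes called. Creb3l3, a membrane-bound factor of lipid metabolism, was at 0.76, 3.94, 2.90 and 5.46 FPKM in AOM/DSS and 23.9, 6.10, 13.3 and 15.4 with curcumin (log2 fold change 1.89, limma adjusted p = 0.0487). The groups did not overlap, but the call held only without AOM/DSS 3 or curcumin 1, with an adjusted p up to 0.14, and voom did not make it. None was called for curcumin against control, where voom called 0. There 10 of 41 had an unadjusted p below 0.05, beside 1468 of all 12052 genes.

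Differentiation genes of the gut lining, of the kind that these factors are known to regulate, included some that passed the test. Of 50 listed, 43 were tested. In AOM/DSS 3 fell (Slc26a3, Car4 and Slc15a1) and 0 rose, beside 1.27% of all genes called. With curcumin against AOM/DSS 5 rose and 0 fell, beside 1.08% of all genes called, and these 2 comparisons share the AOM/DSS libraries. Aqp8, the water channel of the colon surface, went from 243.7 ± 69.8 to 922 ± 271 FPKM (log2 fold change 1.92, limma adjusted p = 0.00341). Abcb1a, a drug efflux pump, went from 88.0 ± 25.2 to 234 ± 24 FPKM (1.44, limma adjusted p = 0.0126). Slc26a3 (1.48), Slc15a1 (1.13) and Car4 (1.08) were the others. The call of Slc15a1 with curcumin was lost without curcumin 0 or 3 (limma adjusted p up to 0.0577). That of Car4 held in 3 of 12 such fits for AOM/DSS against control, those without AOM/DSS 1, curcumin 0 or curcumin 1, and in 5 of 12 for curcumin against AOM/DSS, those without AOM/DSS 1 or any 1 control. The list's median log2 fold change was -0.13 for AOM/DSS against control and 0.26 for curcumin against AOM/DSS, where that of the 8 factors was -0.11 and -0.21. No gene of the list was called for curcumin against control by limma or voom. There 6 of 43 had an unadjusted p below 0.05, beside 1468 of all 12052 genes, a similar share.

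Genes of stomach and foregut, which CDX proteins are known to hold down, were mostly near absent: 16 of 20 listed stayed below 1 FPKM in every library. Of 20 listed, 2 were tested, and both are also found outside the stomach: Muc1, a membrane mucin, and Krt14, a keratin of stratified epithelium. Neither was called in any comparison by limma or voom, and 1, 1 and 0 of 2 had an unadjusted p below 0.05. Muc1 was at 2.45 to 11.6 FPKM and Krt14 at 0.555 to 11.1 FPKM over the 12 libraries. Krt14 differed by 1.16 for AOM/DSS against control (limma adjusted p = 0.264) and by -1.50 for curcumin against AOM/DSS (limma adjusted p = 0.142). In AOM/DSS libraries 0 to 3 it was at 1.23, 6.87, 1.365 and 11.1 FPKM. The summed level of the 20 was 6.45 to 11.3 FPKM in controls, 6.15 to 23.6 in AOM/DSS and 6.27 to 8.29 with curcumin. The highest sums were those of AOM/DSS libraries 1 (22.65) and 3 (23.56). Sox2, the foregut selector, reached at most 0.25 FPKM, and Barx1 was at 0 in every library. Genes that mark position along the colon, of which 9 of 16 were tested, summed to 595 to 729 FPKM in controls, 575 to 673 in AOM/DSS and 568 to 823 with curcumin, and none was called by limma or voom; most of this sum was Hoxb13 and Mettl7b (1, 0 and 1 of 9 at an unadjusted p below 0.05). Hoxb13, a distal gene, ranged from 158 to 421 FPKM over the 12 libraries. Of the crypt and proliferation genes, 14 of 15 were tested and none was called by limma or voom. For AOM/DSS against control 6 of 14 had an unadjusted p below 0.05, beside 1622 of all 12052 genes, with a median log2 fold change of 0.45.

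Within groups, Cdx2 and Hnf4a varied together from library to library. Deviations of log2(FPKM + 1) from the group mean were compared for the 28 pairs of factors over 12 libraries, with permutation tests of 100000 resamples and Benjamini-Hochberg adjustment over the 28 pairs. Cdx2 with Hnf4a gave the highest Pearson r, 0.787 (permutation p = 0.0027, adjusted p = 0.0756), and Spearman's rho was 0.846 (permutation p = 0.00094, adjusted p = 0.0263). It was the 1 pair past the threshold by rank, a pass that is not firm given this limit, and 0 of 28 passed by Pearson's r. Without the 2 libraries farthest from the median in Cdx2, control 0 and control 1, r was 0.738. It was 0.826 within the 7 AT-rich libraries and 0.813 with the GC trend of each library removed. The AT-rich value and the value without control 0 and control 1 used deviations from the means of whole groups. These deviations were not centred again on the libraries kept. Leaving out single libraries gave r from 0.607, without control 1, to 0.946, without control 2. The spans differed: Cdx2 varied with a within-group SD of 0.59 on the log2 scale, at the 94.7th percentile of all genes, and Hnf4a with 0.16. The 5 GC-rich libraries are too few for a value of their own.

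**Figure D5:**
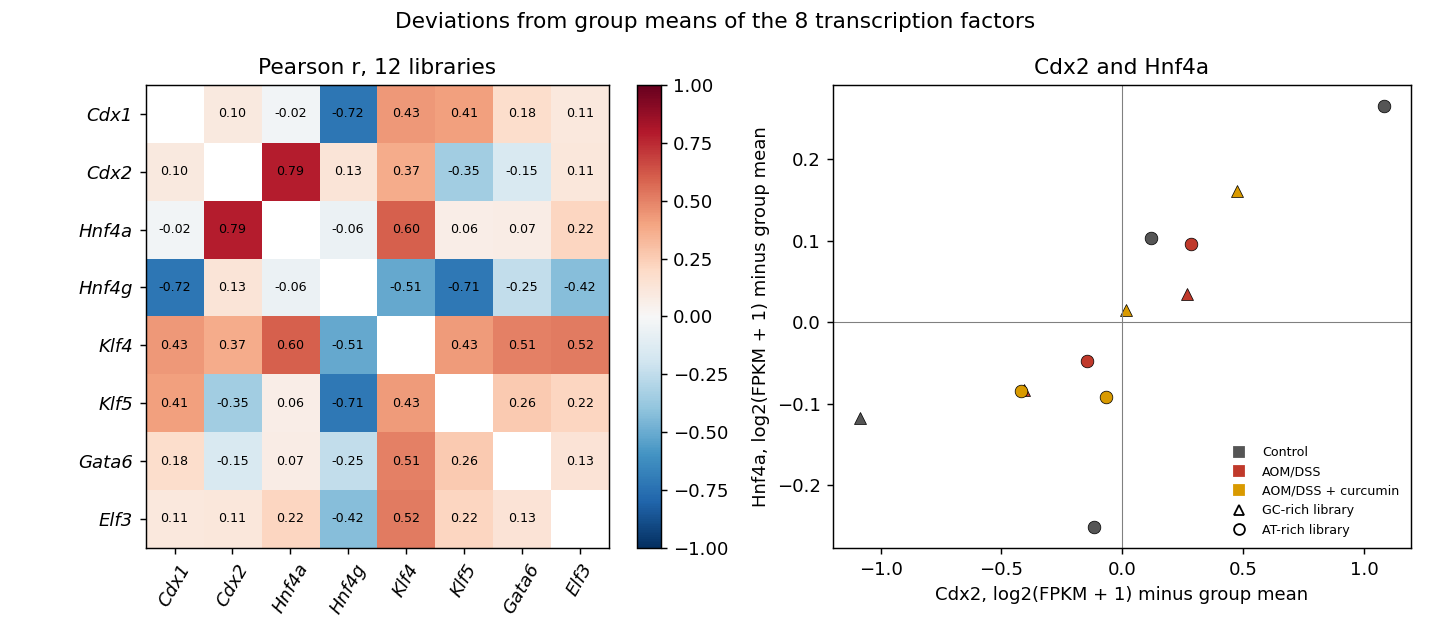
Left, Pearson r of deviations from group means of log2(FPKM + 1) for the 28 pairs of factors over 12 libraries; right, these deviations for Cdx2 (horizontal) and Hnf4a (vertical), coloured by group, with triangles for GC-rich and circles for AT-rich libraries. Cdx2 with Hnf4a has the highest r, 0.787, and control 2 lies farthest from the common trend.

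The other pairs did not pass. Klf4 with Hnf4a gave r = 0.599 and rho = 0.713 (permutation, adjusted p = 0.27 and 0.0813), r = 0.68 without the 2 farthest libraries and 0.635 within the AT-rich ones. Hnf4g ran against Cdx1 (r = -0.723, rho = -0.72) and Klf5 (r = -0.714, rho = -0.727), each with a permutation adjusted p of 0.0994 by r and 0.0813 by rho. With the 2 farthest libraries left out these were -0.662 and -0.672. Over the AT-rich libraries they were -0.446 and -0.207, and with the GC trend removed 0.5 and -0.677. The AT-rich values of all these pairs again used deviations from whole-group means, so differences between the classes were not fully taken out. The inverse relation of Hnf4g and Cdx1, the factors of lowest and highest GC content, thus turned sign once base composition was taken out. Hnf4a with Hnf4g gave r = -0.061 and Cdx1 with Cdx2 0.099, and with the GC trend removed 0.404 and 0.5.

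Genes with the most similar course to each factor over the 12 libraries are given as a description, since libraries share depth and base composition. For Cdx2 they were Pithd1 (r = 0.882), Ube2f (0.879) and Tmem139 (0.877); these kept r of 0.877, 0.938 and 0.907 with the GC trend removed. For Hnf4a they were Brap (0.925), Zfyve1 (0.914) and Pacsin2 (0.902), with 0.866, 0.762 and 0.891 once the GC trend was removed. For Hnf4g they were Cpne3 (0.962), Lsm14a (0.954) and Fndc3a (0.949), and then 0.863, 0.758 and 0.915. Klf4 was closest to Ctnnbip1 (0.923), an inhibitor of beta-catenin and TCF binding, Ralgds (0.918) and Lipg (0.898), and r without the GC trend was 0.914, 0.72 and 0.883. Klf5 was closest to Phf2 (0.936), Tnrc18 (0.933) and Tead3 (0.928), which dropped to 0.689, 0.665 and 0.179. Gata6 was closest to Fzd5 (0.908), a Wnt receptor, Mir1945 (0.818) and Nlrp6 (0.799), which had 0.779, 0.409 and 0.745 on removal of the GC trend. Elf3 was closest to Adamts15 (0.875), Poldip3 (0.874) and Tmem164 (0.872), with 0.859, 0.826 and 0.85. Cdx1 was closest to Sec61b (0.939), Dap (0.934) and Drap1 (0.928), for which r with the GC trend removed was -0.038, 0.451 and 0.366.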

How the data were processed

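The deposited values are FPKM, made by the authors, in 1 headerless table per library for 24391 symbols. Tools listed in the submitters' processing notes, without roles, are DESeq2 1.14.1, featureCounts 1.5.1, TopHat2 2.1.1, R 3.4.0, Bowtie2 2.2.6 and Picard; the build listed is mm9. Annotation and strand are not stated.

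The filter on low values asked for 4 or more libraries at 1 FPKM or higher (12052 genes). Values were tested as log2(FPKM + 1), a scale that understates changes of low genes, with limma 3.58.1 in R 4.3.3 (intensity trend, 1 fit of 12 libraries, Benjamini-Hochberg over all genes tested). Steps in the FPKM values gave whole reads for all 19233 genes above 0 (tolerance 0.001), used for depth and voom. GC content and exon overlap came from GENCODE M21 (11968 genes matched, 99.3%), with no coordinates taken from it.

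On simulated data for AOM/DSS against control limma recovered 68 of 100 true 2-fold changes and 99 of 100 true 4-fold changes (11917 genes), with 11 false calls. For curcumin against AOM/DSS it recovered 64 and 100 (12 false calls), and for curcumin against control 61 and 98 (11 false calls). The simulation gave all genes the same dispersion and no GC class difference. These shares are thus not the power for single factors, least of all for Cdx2 with its wide spread. Named genes were all members, the called genes and those of largest change in each list, Gata4 and Ehf, and the 3 genes of highest r with each member; Klf6, Klf3, Hoxb13, Sox2, Cdx4, Klf14 and Barx1 were named after values were seen. Some genes that the rule took are not reported here. Members and lists were chosen with earlier results of these data known. Alternatives are given at the end. Library pairs correlated at 0.943 to 0.992, and none held the same values as another.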

Additional observations from a re-analysis of the deposited data

How the results depend on the processing

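Of 648 recomputed log2 fold changes of the 8 factors, 619 kept their direction and side of the threshold, 27 changed direction and 2 passed the threshold, both Hnf4g with the GC class covariate. Part of the 648 could not change direction. Leaving out a library of the group outside a comparison leaves its fold change as it was. So does changing only the filter, the intensity trend, the replicate block or the groups fitted. The 619 is therefore not a measure of stability. That covariate moved the number of factors called from 0 to 1 for curcumin against AOM/DSS and against control; in every other fit run it was 0.

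Changes of direction were small, at most 0.39 in size, in 10 of 24 values. For AOM/DSS against control, Cdx1 was -0.0077 with the GC trend removed and -0.0798 in the AT-rich libraries alone; Klf4 was 0.0455 in the GC-rich alone; Klf5 was -0.10 with the GC class covariate, -0.12 with the replicate block and GC class, and -0.39 in the GC-rich alone. For curcumin against AOM/DSS, Cdx1 was 0.0294 in the AT-rich and Hnf4a 0.0829 in the GC-rich alone. For curcumin against control, Cdx1 was -0.0474 with the GC trend removed and -0.0504 in the AT-rich, Cdx2 -0.16 in the AT-rich, Klf4 0.026 and Hnf4a 0.0471 in the GC-rich. Leaving out 1 library gave ranges of -0.26 to 0.13 (Klf4) and -0.10 to 0.25 (Klf5) for AOM/DSS against control, and of -0.17 to 0.0077 (Cdx1), -0.28 to 0.10 (Klf4) and -0.0823 to 0.0031 (Hnf4a) for curcumin against AOM/DSS. The cause was not tested.

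The count of all genes called, 153, 130 and 17, was 53 to 201, 48 to 149 and 4 to 35 without single libraries. With the GC class covariate it was 238, 272 and 40, with the GC trend removed 238, 239 and 27, in the AT-rich alone 4, 1 and 0, and in the GC-rich alone 7, 8 and 0. With only the groups compared the first 2 were 54 and 85. The third was 11 with a pseudocount of 0.1, 7 with no filter, and 1 with the replicate block and GC class. Voom called 170, 141 and 21.

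The labels share replicate numbers across groups, but the check did not show that they pair the samples: over 12 same-numbered pairs r ran from -0.333 to 0.456, 6 were over 0.1, and 4 of 12 libraries matched best to their own number. The GC class went with the number in 11 of 12 libraries. With the replicate block 82, 86 and 2 genes were called, and 0 of 8 factors. Calls of named genes that the block ended were Tcf7l2 (adjusted p = 0.0855), Nr3c2 (0.0766) and Car4 (0.0723) for AOM/DSS against control, and Creb3l3 (0.0772), Car4 (0.0651), Slc15a1 (0.0561) and Hsph1 (0.0967) for curcumin against AOM/DSS (limma). Depth limited Hnf4g most, by a counting error of up to 6.74%.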
